A study of Mus musculus with 7 samples.

Results

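The let-7 guide strands and miR-98 are the 9 mature microRNAs (miRNAs) of the mouse let-7 family that were taken here by name, out of 1908 mature miRNA rows in each of 2 deposited tables. They are mmu-let-7a-5p, mmu-let-7b-5p, mmu-let-7c-5p, mmu-let-7d-5p, mmu-let-7e-5p, mmu-let-7f-5p, mmu-let-7g-5p, mmu-let-7i-5p and mmu-miR-98-5p, written below without the species prefix. Small RNAs had been sequenced from fluorescence-sorted cells of dissociated embryonic mouse spinal cord in 7 libraries. At E10.5 the groups were GFP-positive motoneurons (2 libraries) and GFP-negative cells (2 libraries), both from embryos carrying Hb9::gfp, in which GFP is driven by sequences of the motoneuron gene Hb9. At E12.5 there was 1 library each of GFP-positive motoneurons from Hb9::gfp embryos, of tdTomato-positive V2a interneurons from Chx10::cre;Rosa26::LSL::tdTomato embryos, and of tdTomato-positive V3 interneurons from Sim1::cre;Rosa26::LSL::tdTomato embryos. A Cre-dependent reporter also stays on in cells that expressed the Cre only earlier, and the GFP-negative group is a mixture of all remaining cells. The labels do not say how many embryos went into a library.

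let-7 miRNAs are known as markers of differentiation from worms to mammals: their mature forms are scarce in early embryonic and progenitor cells and accumulate as cells stop dividing. The guide strand is loaded into an Argonaute protein and pairs through its seed, the bases near its 5′ end, with target mRNAs such as Hmga2, Lin28 and Myc family genes. LIN28 proteins bind the loop of let-7 precursors and block their maturation, so that mature let-7 and Lin28 repress each other.

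The 9 mature sequences from RefSeq (GRCm38.p6) are shown because their near identity decides how far single rows can be told apart. Capitals mark the seed, bases 2 to 8 counted from the 5′ end.
let-7a-5p: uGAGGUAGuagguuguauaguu
let-7b-5p: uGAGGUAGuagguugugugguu
let-7c-5p: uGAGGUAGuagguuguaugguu
let-7d-5p: aGAGGUAGuagguugcauaguu
let-7e-5p: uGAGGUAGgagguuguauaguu
let-7f-5p: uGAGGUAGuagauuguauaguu
let-7g-5p: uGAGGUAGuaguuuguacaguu
let-7i-5p: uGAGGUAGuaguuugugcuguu
miR-98-5p: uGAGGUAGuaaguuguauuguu
All 9 carried the same seed and were 22 nt long, so no length correction was needed between them. Any other effect of sequence on the reads counted was not corrected. Set against let-7a-5p, with let-7a-5p's base first and positions counted from 1 at the 5′ end, let-7c-5p differed by A19G, let-7e-5p by U9G and let-7f-5p by G12A. let-7b-5p carried A17G and A19G, let-7d-5p U1A and U16C, let-7g-5p G12U and U18C, and miR-98-5p G11A and A19U. let-7i-5p was farthest from let-7a-5p, with G12U, A17G, U18C and A19U. let-7b-5p and let-7c-5p differed from each other at 1 base.

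In the E10.5 table the 9 rows lay in 1 bundle, a set of rows that share reads, together with let-7j, let-7k and miR-1961. The split of reads among rows is therefore uncertain, and the summed family is given beside them.

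The 9 guides can come from 12 hairpins on 7 chromosomes (RefSeq positions on GRCm38.p6, gene overlaps from GENCODE vM21). Mirlet7a-1, Mirlet7f-1 and Mirlet7d lie within a short stretch of chromosome 13 on the minus strand, at 48538179 to 48538272, 48537829 to 48537917 and 48536012 to 48536114, in exons of the long noncoding RNA gene 6720427I07Rik. Mirlet7c-2 (85706603 to 85706697) and Mirlet7b (85707319 to 85707403) are neighbours on the plus strand of chromosome 15, in exons of the noncoding gene Lncppara. Mirlet7f-2 (151912346 to 151912428) and Mir98 (151913214 to 151913321) lie on the plus strand of chromosome X in introns of the ubiquitin ligase gene Huwe1. Mirlet7c-1 lies in an intron of Mir99ahg (chromosome 16, 77599657 to 77599750, with Gm11146 on the opposite strand), Mirlet7e in an intron of Spaca6 (chromosome 17, 17830352 to 17830444) and Mirlet7a-2 in introns of 3110039I08Rik and Gm49317 (chromosome 9, 41536716 to 41536811). Mirlet7g lies in an intron of Wdr82 (chromosome 9, 106178840 to 106178927) and Mirlet7i in an exon of the transcribed pseudogene D630033A02Rik (chromosome 10, 122985640 to 122985724). let-7a, let-7c and let-7f each have 2 hairpins with the same guide, so their rows cannot be assigned to a locus.

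E10.5 values are RPM, reads per 1000000 reads assigned to mature miRNAs, and E12.5 values are TPM, the deposited FPKM rescaled to a sum of 1000000. Steps between low values gave depths of 493236 to 802745 reads at E10.5 and 3603138 to 4604618 reads at E12.5. The motoneuron miRNA miR-218, summed over its guide and 2 passenger strands, stood at 177957 and 200357 RPM in the E10.5 motoneuron libraries against 6623 and 7320 RPM in the GFP-negative libraries. In GFP-negative replicate 1 both passenger strands were at 0, and in replicate 2 miR-218-1-3p was. The sum was at 104218 TPM in E12.5 motoneurons, 7560 TPM in V2a and 7284 TPM in V3. No miRNA list that marks V2a or V3 cells was used. The labels do not tie replicate numbers to litters or sorts. The p-values therefore reflect only how far these libraries scatter, and that scatter may be technical.

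As a family, let-7 had lower RPM in motoneurons than in GFP-negative cells at E10.5, and whether the difference was called depended on the scaling. The 9 rows summed to 12167 and 12331 RPM in the motoneuron libraries, against 17165 and 19109.6 RPM in the GFP-negative libraries. The libraries did not overlap, and all 4 sums rested on at least 6082 reads. The family averaged 12249 ± 116 RPM in motoneurons and 18137 ± 1375 RPM in GFP-negative cells (SD, n = 2 each), a ratio of 0.675. With the 9 rows replaced by their sum and tested among 484 miRNAs on log2(RPM + 1), the log2 fold change was -0.56 (SE 0.14 and adjusted p = 0.0174 by limma). An exact permutation test of the sum over the 4 libraries gave p = 0.333 (two-sided), the smallest that 2 against 2 allows. Over all 492 miRNAs tested singly the median log2 fold change was -0.34. With the median of ratios as scaling, which moved that median to -0.07, the family stood at -0.29 (limma adjusted p = 0.150; range over the 12 alternatives 0.00407 to 0.317). The call of the family sum was lost in 6 of the 12 alternatives. Without motoneuron replicate 1 or 2 the log2 fold change was -0.55 or -0.57, with limma adjusted p of 0.109 and 0.100. In bulk sorted samples, fewer cells that carry a miRNA and less of it per cell cannot be told apart.

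Most single members were lower in motoneurons, and let-7b-5p and let-7c-5p had higher values there without passing the test. Of 9 members tested, 6 were lower and 0 higher in motoneurons at a limma adjusted p under 0.05. The 6 include miR-98-5p, which entered the test only through its GFP-negative values, and without it 5 of 8 were lower. Of all tested miRNAs, 30.7% were lower, 11.6% higher and 42.3% called in either direction. At an unadjusted p of 0.05, 7 of the 9 members passed, as did 259 of all 492 tested miRNAs. The additional member was let-7b-5p, with a positive fold change. The median log2 fold change of the 9 was -0.94. In all 9, motoneuron and GFP-negative values were fully separated, lower in motoneurons in 7 and higher in 2, against 48.6% and 25.0% of all tested miRNAs.

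**Figure D1:**
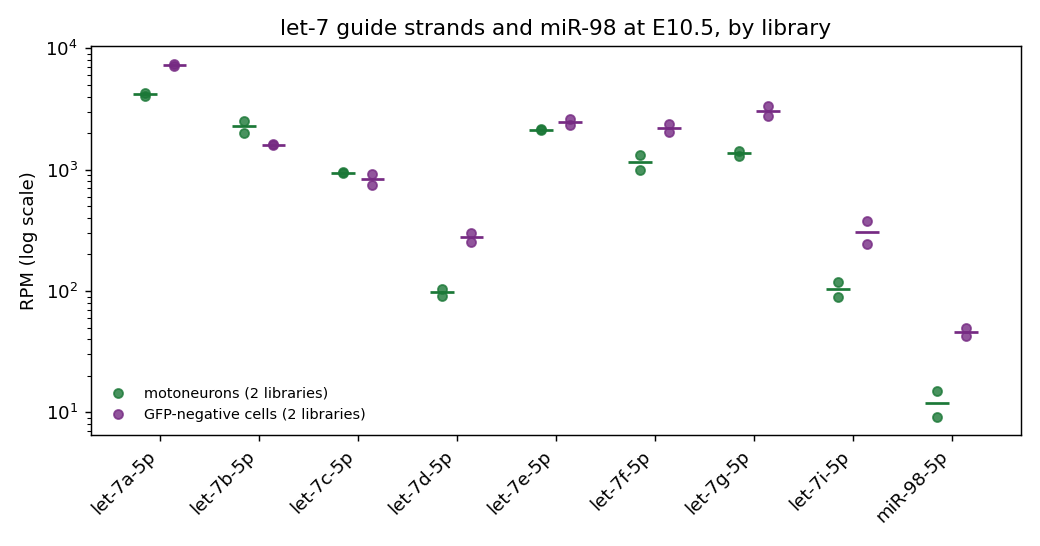
Level of each member in the 4 E10.5 libraries, in RPM on a log axis. Points are libraries and short lines are group means, with motoneurons left of GFP-negative cells. let-7b-5p and let-7c-5p lie higher in motoneurons and the other 7 lie lower, with no overlap of library values in any member. For let-7c-5p the gap is narrow.

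let-7a-5p, the most abundant member at this stage, was at 4052 and 4264 RPM in motoneurons, against 7157 and 7468 RPM in GFP-negative cells. It fell by 0.81 on the log2 scale (SE 0.14 and adjusted p = 0.00429 by limma). let-7f-5p and let-7d-5p, whose hairpins neighbour that of let-7a-1 on chromosome 13, fell as well. let-7f-5p had 999.6 and 1325 RPM in motoneurons and 2053 and 2387 RPM in GFP-negative cells, a difference of -0.94 on the log2 scale (SE 0.20 and adjusted p = 0.0094 by limma). Its call was lost without motoneuron replicate 1, the library with the lower value (log2 fold change -0.74, limma adjusted p = 0.0658; range over 11 alternatives 0.00386 to 0.0658). let-7d-5p stood at 104.7 and 91.4 RPM in motoneurons and at 253.7 and 302.9 RPM in GFP-negative cells, a difference of -1.49 on the log2 scale (SE 0.25 and adjusted p = 0.00396 by limma). Every motoneuron library of these 3 members lay below every GFP-negative library.

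let-7g-5p, from the Wdr82 intron, was at 1302 and 1415 RPM in motoneurons, against 2748 and 3373 RPM in GFP-negative cells, and fell by 1.16 (SE 0.18 and adjusted p = 0.00261 by limma). let-7i-5p had 89.9 and 118.6 RPM in motoneurons and 242.0 and 374.1 RPM in GFP-negative cells, a difference of -1.53 on the log2 scale (SE 0.31 and adjusted p = 0.00776 by limma). miR-98-5p was the scarcest member, at 9.12 and 14.9 RPM in motoneurons and 42.7 and 49.3 RPM in GFP-negative cells. These values came from about 7 reads in each motoneuron library and 33 and 27 reads in the GFP-negative libraries. Its log2 fold change was -1.89 (SE 0.42 and adjusted p = 0.0105 by limma). miR-98-5p passed the filter on low values, 15.2 RPM in at least 2 libraries, only through the GFP-negative libraries, where it is high, and without either of those it was not tested; the other 8 passed it in all 4 libraries. The falls of let-7a-5p, let-7d-5p, let-7g-5p and let-7i-5p stayed past the threshold in all 11 alternatives run for each. For miR-98-5p only 9 alternatives could test it, each with both GFP-negative libraries kept, so its call has no comparable check.

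let-7b-5p, let-7c-5p and let-7e-5p did not pass the test. let-7b-5p stood at 2533 and 2017 RPM in motoneurons, against 1589 and 1619 RPM in GFP-negative cells, a difference of 0.49 on the log2 scale (SE 0.18 and adjusted p = 0.0631 by limma). let-7c-5p was at 929.7 and 959.3 RPM in motoneurons and at 745 and 915.8 RPM in GFP-negative cells, a difference of 0.19 on the log2 scale (SE 0.19 and adjusted p = 0.454 by limma). let-7e-5p, which has a hairpin beside miR-99b and miR-125a, was at 2148 and 2126 RPM in motoneurons and at 2335 and 2621 RPM in GFP-negative cells. Its log2 fold change of -0.21 (SE 0.16 and adjusted p = 0.315 by limma) turned to 0.065 with the median of ratios, 0.023 with TMM factors and 0.17 with totals without the 5 most abundant miRNAs. With those 3 scalings let-7b-5p was called higher, at 0.77, 0.73 and 0.87 (limma adjusted p = 0.0200, 0.0168 and 0.00533; range over 11 alternatives 0.00533 to 0.282). With the last of them let-7c-5p was called too, at 0.57 (limma adjusted p = 0.0385; range over 11 alternatives 0.0385 to 0.901).

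A member's change relative to the family sum does not depend on a scaling factor between libraries, apart from the effect of the pseudocount. The sum includes the member itself, so a gain of an abundant member lowers the relative values of the others. It also rests on the uncertain split of reads within the bundle. With the log2 family sum of each library subtracted, 2 of the 9 members were called higher in motoneurons and 4 were called lower (limma adjusted p under 0.05). The 4 include miR-98-5p, which entered the test only through its GFP-negative values. The same fit called 27.6% of all tested miRNAs higher and 19.9% lower. let-7b-5p gained most, with a relative log2 fold change of 1.06 (SE 0.19 and adjusted p = 0.00252 by limma), and with each library left out it was 0.88 to 1.23, past the threshold each time. In such refits 1 arm holds a single library, which is assumed to vary like the libraries of the other arm, so their p-values are weak evidence of stability. let-7c-5p gained 0.76 (SE 0.19 and adjusted p = 0.0107 by limma; 0.0681 without GFP-negative replicate 1, range over 5 alternatives 0.0103 to 0.0681). let-7g-5p, let-7d-5p, let-7i-5p and miR-98-5p had relative log2 fold changes of -0.60, -0.93, -0.97 and -1.32 (limma adjusted p of 0.0198, 0.0173, 0.0223 and 0.0320). Each of these 4 lost its call with at least 1 library left out, with limma adjusted p up to 0.0961 for let-7g-5p, 0.0857 for let-7d-5p, 0.146 for let-7i-5p and 0.0719 for miR-98-5p. let-7a-5p, let-7e-5p and let-7f-5p had -0.25, 0.35 and -0.38 and did not pass (limma adjusted p of 0.217, 0.112 and 0.143).

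**Figure D2:**
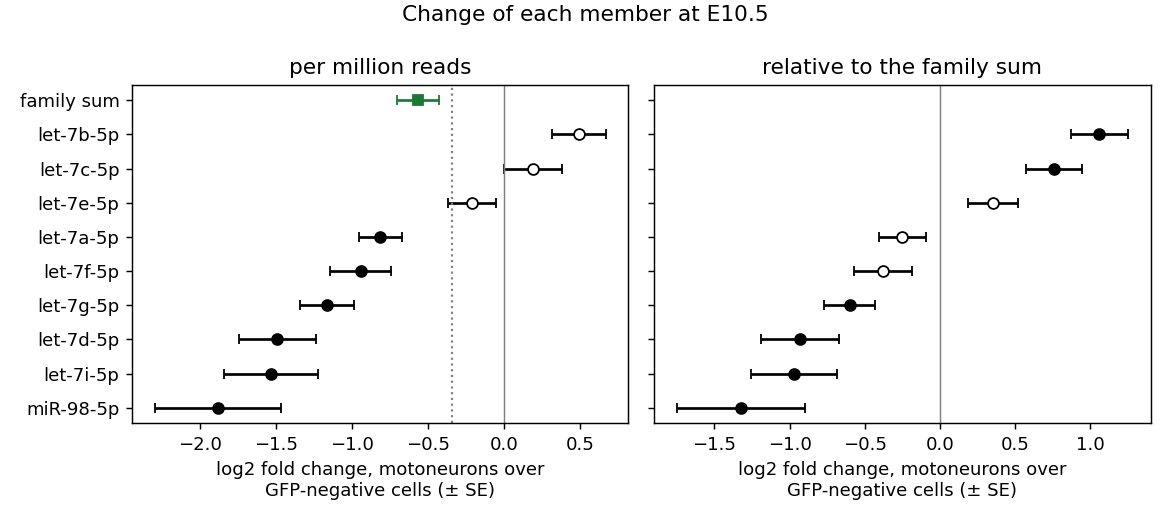
Log2 fold change of motoneurons over GFP-negative cells at E10.5 for each member, with its SE, from RPM (left) and relative to the family sum (right). Filled circles passed a limma adjusted p of 0.05, the square is the family sum and the dotted line is the median of all tested miRNAs (-0.34). let-7b-5p and let-7c-5p lie to the right of 0 on both scales.

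As shares of the family, let-7b-5p made up 20.8% and 16.4% in the motoneuron libraries, against 9.26% and 8.47% in the GFP-negative libraries. let-7c-5p made up 7.64% and 7.78% in motoneurons and 4.34% and 4.79% in GFP-negative cells. The pair shares the A19G difference from let-7a-5p, which the other 7 members lack, and Mirlet7b and Mirlet7c-2 neighbour each other on chromosome 15, while the other let-7c hairpin lies on chromosome 16. Summed, the pair stood at 3463 and 2976 RPM in motoneurons, against 2334 and 2535 RPM in GFP-negative cells. The other 7 members together stood at 8704 and 9355 RPM in motoneurons, against 14831 and 16574 RPM in GFP-negative cells. This grouping was made after the values were seen and was not tested.

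The order of the levels differed in the middle of the range. In motoneurons it ran let-7a-5p, let-7b-5p, let-7e-5p, let-7g-5p, let-7f-5p, let-7c-5p, let-7i-5p, let-7d-5p and miR-98-5p. There the libraries overlapped between let-7b-5p and let-7e-5p, between let-7g-5p and let-7f-5p, and between let-7i-5p and let-7d-5p. In GFP-negative cells let-7g-5p was the second and let-7b-5p the fifth, with overlap between let-7e-5p and let-7f-5p and between let-7i-5p and let-7d-5p.

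Lists of marker miRNAs, of other tissues and of neural cells, were summed in the E10.5 libraries. The 10 listed mesenchymal and smooth muscle miRNAs, such as miR-199a and miR-214, summed to 1571 and 424 RPM in motoneurons, against 81413 and 94290 RPM in GFP-negative cells. In motoneurons, miR-145a-3p was at 0 in both libraries and miR-143-5p in 1 of them, and none of the 10 was at 0 in GFP-negative cells. The 4 muscle miRNAs summed to 355 and 130 RPM in motoneurons against 4192 and 3796 RPM in GFP-negative cells, with none at 0. The 3 sensory neuron miRNAs, all detected, summed to 1971 and 2325 RPM in motoneurons against 9171 and 9535 RPM in GFP-negative cells. The 2 endothelial miRNAs, both detected, summed to 508 and 295 RPM in motoneurons against 977 and 676 RPM in GFP-negative cells. The 8 neuronal miRNAs, with 1 strand of miR-129 at 0 in each library, summed to 3236 and 3552 RPM in motoneurons against 2666 and 2899 RPM in GFP-negative cells. The 3 progenitor miRNAs, all detected, summed to 38195 and 42623 RPM in motoneurons against 33417 and 27213 RPM in GFP-negative cells. The 3 blood miRNAs in the table, of which at least 1 was at 0 in 3 of the libraries, summed to 12.46 and 6.08 RPM in motoneurons against 30.9 and 13 RPM in GFP-negative cells. The 5 epithelial miRNAs summed to 53.6 and 89.2 RPM in motoneurons against 170 and 342 RPM in GFP-negative cells, with miR-141-3p and miR-429-3p at 0 in motoneuron replicate 1 and miR-141-3p in GFP-negative replicate 2. Their part in the let-7 differences was not tested. With the mesenchymal and muscle lists left out of the totals, the family sum had a log2 fold change of -0.70 (limma adjusted p = 0.00822). That scaling shifts all miRNAs down together. The median of all tested miRNAs stood at -0.47 with it, against -0.34 as reported.

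The row let-7j shares the bundle and lies close to let-7i-5p in sequence. It is shown because its row held more reads than let-7i-5p at E10.5 and fewer at E12.5. Its mature form is placed by RefSeq at bases 140028281 to 140028304 of chromosome 3 (GRCm38.p6, plus strand).
let-7j: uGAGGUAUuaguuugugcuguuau
Capitals mark bases 2 to 8, which are those of let-7 except for G8U. Over the 22 bases of let-7i-5p it differed from it at 1 base. let-7j stood at 461 and 487 RPM in motoneurons, against 1350 and 1559 RPM in GFP-negative cells, and fell by 1.61 (SE 0.18 and adjusted p = 0.000841 by limma). At E12.5 it was at 140 TPM in motoneurons, 154 TPM in V2a and 339 TPM in V3. let-7i-5p and let-7j summed to 551 and 605 RPM in E10.5 motoneurons, against 1592 and 1933 RPM in GFP-negative cells. With all 12 rows of the bundle summed, the log2 fold change of the family was -0.62 (SE 0.14 and adjusted p = 0.0117 by limma). Of the other rows with a let-7 type seed, let-7k had at most 1 read in any library and miR-1961 was listed at 0 in all 7. miR-202-3p, whose seed ends in a different base, was at 0 in all E10.5 libraries, which allows up to 6.08 RPM, and at 3.38, 6.67 and 2.89 TPM in E12.5 motoneurons, V2a and V3.

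Several let-7 hairpins are made from the same transcripts as miR-99, miR-100 and miR-125 miRNAs. Of 11 strands of these neighbours, 9 were tested, 2 were higher and 0 lower in motoneurons at E10.5, against 11.6% higher and 30.7% lower among all tested miRNAs. Their median log2 fold change was -0.20, against -0.34 over all tested miRNAs. miR-100-5p, beside let-7a-2, was at 19043 and 21597 RPM in motoneurons, against 11611 and 14280 RPM in GFP-negative cells (log2 fold change 0.66, SE 0.16 and adjusted p = 0.0170 by limma). miR-99a-5p, beside let-7c-1, was at 21911 and 27939 RPM in motoneurons, against 14108 and 17205 RPM in GFP-negative cells (log2 fold change 0.67, SE 0.18 and adjusted p = 0.0238 by limma). miR-99a-5p and miR-100-5p share reads with each other. miR-99b-5p, miR-125a-5p and miR-125b-5p had -0.40, -0.32 and -0.20 (limma adjusted p of 0.182, 0.274 and 0.457). Of 12 passenger strands, cut from the other arm of the let-7 hairpins, 5 passed the filter, 3 were called lower and 0 higher, against 30.7% and 11.6% of all tested miRNAs. Of these 3, let-7a-1-3p and let-7c-2-3p have the same sequence and are 1 set of values listed under 2 names. Each had 0.62 and 4.05 RPM in motoneurons, against 24.4 and 31.6 RPM in GFP-negative cells. They passed the filter only through the GFP-negative libraries, and their motoneuron values lie under the level of 3 reads (3.74 and 6.08 RPM), so no fold change is given. let-7d-3p had 37.4 and 48.7 RPM in motoneurons and 78.5 and 113.3 RPM in GFP-negative cells (log2 fold change -1.13, SE 0.35 and adjusted p = 0.0391 by limma).

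At E12.5 the question was how let-7 levels compare among 3 neuron types, each with a single library, so differences have no replicate check. The family summed to 28590 TPM in motoneurons, 23840 TPM in V2a and 40202 TPM in V3. The log2 ratio was 0.26 for motoneurons over V2a (95% exact binomial counting interval 0.25 to 0.27), -0.49 for motoneurons over V3 (-0.50 to -0.48) and -0.75 for V2a over V3 (-0.76 to -0.74). Only counting error is in these intervals. Every read enters them as a separate molecule, so any PCR copies make them too narrow. These 3 ratios share libraries. Over the 719 miRNAs with at least 2.34 TPM (10 reads at median depth) in 2 or more libraries, the median log2 ratio was -0.20, 0.23 and 0.46 in the same order, and scaling by totals without the 5 most abundant miRNAs turned motoneurons over V2a to -0.38.

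let-7c-5p was the most abundant member in all 3 populations, at 12421 TPM in motoneurons, 8285 TPM in V2a and 18345 TPM in V3. let-7b-5p, which differs from it at 1 base, was at 240 TPM in motoneurons, 209 TPM in V2a and 1585 TPM in V3. How reads were split between these rows is not given. Summed, let-7b-5p and let-7c-5p stood at 12661 TPM in motoneurons, 8494 TPM in V2a and 19929.5 TPM in V3. The ratio of that sum was 0.635 for motoneurons over V3 and 0.426 for V2a over V3. let-7i-5p was at 3135 TPM in motoneurons, 2684 TPM in V2a and 6606 TPM in V3. All 3 were highest in V3. They were the only members at least 2-fold lower in V2a than in V3, against 8.07% of all miRNAs, and no member was at least 2-fold higher, against 26.3% of all miRNAs.

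let-7a-5p was at 5730 TPM in motoneurons, 4349 TPM in V2a and 5523 TPM in V3. let-7g-5p was at 2527 TPM in motoneurons, 1863 TPM in V2a and 1809 TPM in V3. let-7f-5p was at 1701 TPM in motoneurons, 1868 TPM in V2a and 1882 TPM in V3. In TPM, none of these 3 differed by as much as 1.5-fold between populations. Other scalings were run only for the family sum. Its V2a over V3 log2 ratio moved from -0.75 to -1.25 with the median of ratios.

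let-7e-5p was lowest in motoneurons, at 2403 TPM, against 4008 TPM in V2a and 3805 TPM in V3. let-7d-5p was at 408 TPM in motoneurons, 516 TPM in V2a and 575 TPM in V3. miR-98-5p was at 24.7 TPM in motoneurons (88 reads), 58.6 TPM in V2a (263 reads) and 72.3 TPM in V3 (301 reads). miR-98-5p was thus the scarcest member in all 3 populations and lowest in motoneurons.

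**Figure D3:**
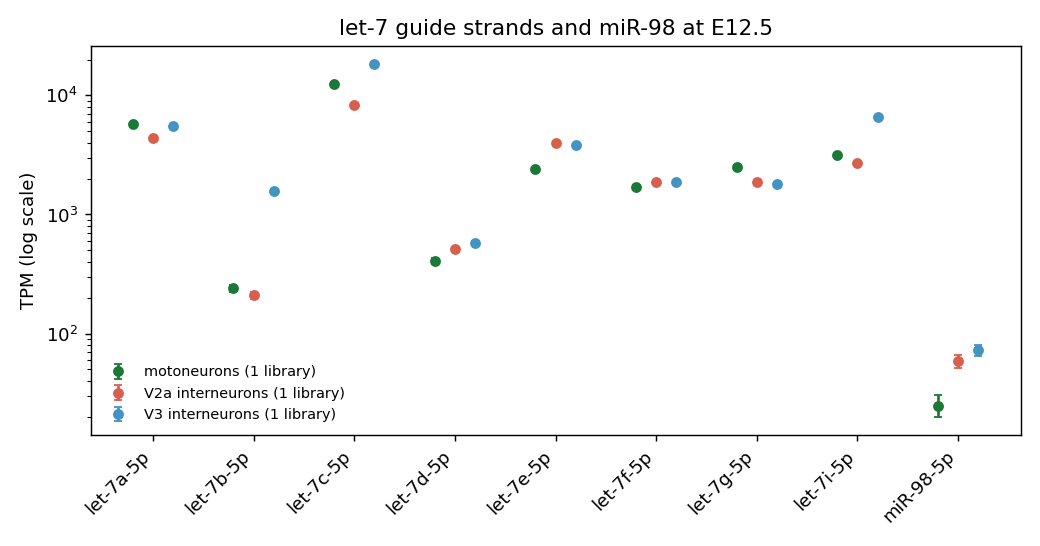
Level of each member in the 3 E12.5 libraries, in TPM on a log axis. Points are single libraries, from left to right motoneurons, V2a and V3, and bars are 95% Poisson counting intervals. let-7b-5p, let-7c-5p and let-7i-5p are highest in V3, and miR-98-5p is lowest in motoneurons.

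Between motoneurons and V2a, 5 members were above and 4 below, 1 of them (miR-98-5p) by at least 2-fold, where 22.0% of all miRNAs were at least 2-fold lower. No member was at least 2-fold higher, against 13.2% of all miRNAs. The median log2 ratio of the 9 was 0.20. Between motoneurons and V3, 2 members were above and 7 below, 3 of them (let-7b-5p, let-7i-5p and miR-98-5p) at least 2-fold lower, against 13.9% of all miRNAs. None was at least 2-fold higher, against 26.0% of all miRNAs. The median of the 9 was -0.56. Between V2a and V3 the 9 had a median of -0.30, with 2 above and 7 below. Of all 719 miRNAs, 41.2% were above for motoneurons over V2a, 57.7% for motoneurons over V3 and 73.0% for V2a over V3.

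At E12.5 the order of levels was let-7c-5p, let-7a-5p, let-7i-5p, let-7g-5p, let-7e-5p, let-7f-5p, let-7d-5p, let-7b-5p and miR-98-5p in motoneurons, with no overlap of counting intervals between neighbours. In V2a, let-7e-5p was the third and let-7i-5p the fourth. In V3, let-7i-5p was the second and let-7b-5p came before let-7d-5p. let-7f-5p and let-7g-5p, the fifth and sixth in V2a and in V3, had overlapping intervals in both.

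Marker miRNAs of other tissues were also summed at E12.5. The mesenchymal and smooth muscle list summed to 199 TPM in motoneurons, 249 TPM in V2a and 310 TPM in V3, with miR-145a-5p and miR-145a-3p at 0 in motoneurons, miR-143-5p in V2a and miR-145a-3p in V3. The endothelial list, with none at 0, summed to 177 TPM in motoneurons, 405 TPM in V2a and 174 TPM in V3. The sensory neuron list, with none at 0, summed to 108 TPM in motoneurons, 181 TPM in V2a and 193 TPM in V3. The muscle list summed to 126 TPM in motoneurons, 221 TPM in V2a, where miR-133b-3p was at 0, and 63.0 TPM in V3. The epithelial and blood lists stayed under 20 TPM in all 3 libraries. The neuronal list, with none at 0, summed to 14090 TPM in motoneurons, 11450 TPM in V2a and 5681 TPM in V3. The progenitor list of miR-9 strands and miR-92b-3p, with none at 0, summed to 75248 TPM in motoneurons, 76666 TPM in V2a and 165939 TPM in V3. V3, the library with the highest let-7 sum, thus had the lowest neuronal and highest progenitor sum, and their part in the let-7 values was not tested.

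The make-up of the family differed between the stages' tables. In motoneurons, let-7c-5p made up 43.4% of the family at E12.5, against 7.64% and 7.78% at E10.5. let-7i-5p made up 11.0% at E12.5, against 0.739% and 0.961% at E10.5. let-7b-5p made up 0.839% at E12.5, against 20.8% and 16.4% at E10.5. let-7a-5p made up 20.0% at E12.5, against 33.3% and 34.6% at E10.5. The family held 2.86% of all miRNA abundance in E12.5 motoneurons, against 1.22% and 1.23% in E10.5 motoneurons. let-7b-5p with let-7c-5p, summed, made up 44.3% of the family in E12.5 motoneurons and 28.5% and 24.1% in E10.5 motoneurons. The stages were deposited in separate tables, and how reads were split among near-identical rows is not given for either. A different splitting rule could change shares within the family, so stage and table cannot be told apart and no test was made.

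**Figure D4:**
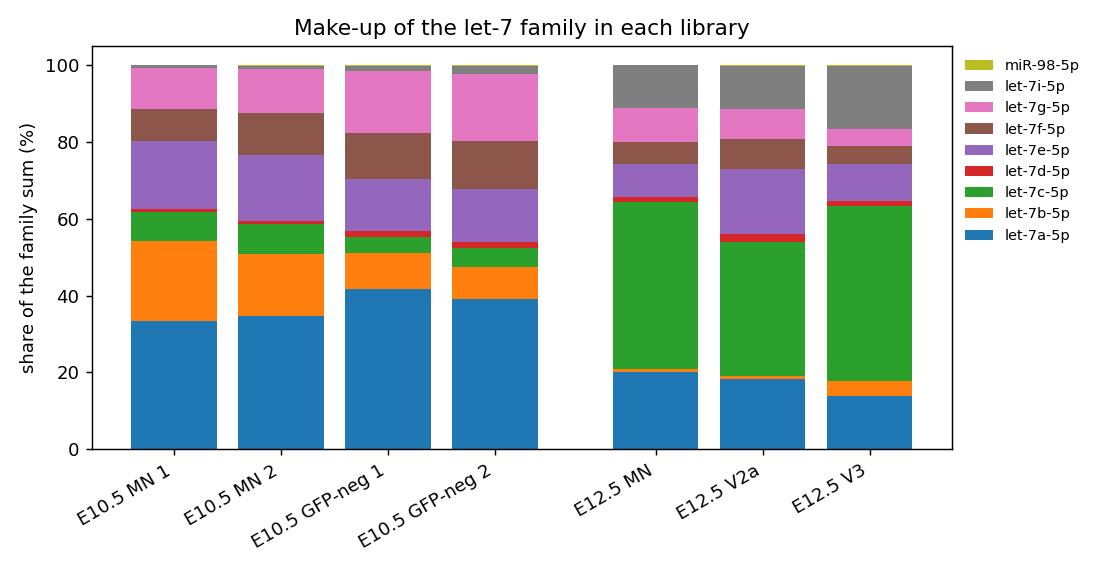
Share of each member in the family sum, in percent, in the 4 E10.5 libraries (left block, motoneurons before GFP-negative cells) and the 3 E12.5 libraries (right block). let-7b-5p takes 20.8% and 16.4% in E10.5 motoneurons against 9.26% and 8.47% in GFP-negative cells, and let-7c-5p takes 43.4%, 34.8% and 45.6% in E12.5 motoneurons, V2a and V3.

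Among 150 miRNAs outside the bundle with a mean of at least 100 in each table, the 5 whose pattern over the 7 libraries lay nearest to that of the family sum were miR-30a-3p, miR-30c-5p, miR-674-3p, miR-30a-5p and miR-380-5p. Their root mean square differences, on log2 values centred within each table, were 0.21, 0.21, 0.23, 0.24 and 0.28. The miR-30 rows share reads with other miR-30 rows. The likeness is a description over libraries that share their groups.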

How the data were processed

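RPM values of the 4 E10.5 libraries were used as the authors deposited them, in a table that also holds the authors' group means. In rows that share no reads, at least 97.4% of low E10.5 values lay within 0.05 of whole reads; rows in shared bundles held split reads, so no count model was run. The E12.5 values were deposited without a named unit and were read as FPKM: multiplied by RefSeq mature lengths, 75.5% to 82.1% of their low values in rows that share no reads lay within 0.05 of whole reads. They were then divided by each library's sum and multiplied by 1000000 (TPM). The submitters' processing notes name Bowtie2 without a version. For the counting program, build and annotation, nothing is given in the sources used here. Members were matched by row name, and groups came from sample titles. Motoneurons and GFP-negative cells at E10.5 were tested on log2(RPM + 1) by limma 3.58.1 under R 4.3.3, two-sided and with an intensity trend. Benjamini-Hochberg adjustment covered all miRNAs with 10 reads at the median depth (15.2 RPM) in at least 2 libraries. Such fold changes understate the change of low miRNAs. A version of the fit scaled by the median of ratios was run on simulated data with changes in both directions. That run does not check the reported fit, which has no such scaling. E12.5 libraries were only described, with a 2-fold limit on log2(TPM + 1). Named were all members, other rows with a let-7 type seed, the tested 5p neighbours, the called passenger strands and the 5 nearest patterns. let-7j and let-7b-5p with let-7c-5p as a pair were described more closely after their values were seen. The members and lists were chosen with earlier results of these data known.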

Additional observations from a re-analysis of the deposited data

How the results depend on the processing

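At E10.5 the family sum stayed lower in motoneurons in all 12 alternatives but kept its call in 6. Its log2 fold change was -0.29 with the median of ratios, -0.33 with TMM factors, -0.19 with totals without the 5 most abundant miRNAs and -0.56 with only all-zero rows removed (limma adjusted p of 0.150, 0.0910, 0.317 and 0.0545). With each library left out it ran from -0.64 to -0.49. Those scalings put the median of all miRNAs at -0.07, -0.11 and 0.03, and calls over all miRNAs at 24.0% lower and 17.3% higher, 26.0% and 17.3%, and 23.6% and 21.3%, against 30.7% and 11.6% as reported. The count of members called lower was 6 and ran from 5 to 6 with a library left out. It was 1 with the rows of a bundle summed, which leaves 1 row for the family. Members called higher were 0 as reported and with any library left out, 1 with the median of ratios, 1 with TMM factors, 2 with totals without the 5 most abundant miRNAs and 1 with the replicate block. let-7e-5p, at -0.21 as reported, was at 0.065, 0.023 and 0.17 under those 3 scalings.

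With the replicate number as a block, the family sum stayed at -0.56 (limma adjusted p = 0.0155) and let-7b-5p was called (0.49, limma adjusted p = 0.0449). Deviations of libraries with the same number correlated at 0.26 across 492 miRNAs, but with 2 numbers and no label behind them they are not taken as pairs. Of 97 refits of single members, 88 kept direction and call. Single members have no value with bundles summed, and miR-98-5p has none without a GFP-negative library, which put it under the filter.

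At E12.5 the log2 ratio of the family in motoneurons over V2a was 0.52 with the median of ratios, 0.49 with TMM factors, -0.38 with totals without the 5 most abundant and 0.28 with values as deposited. Over V3 it was -0.73, -0.70, -1.33 and -0.47 in that order. V2a over V3 was -1.25, -1.19 and -0.94 with the first 3. The cause was not tested. The following 2 alternatives were added after seeing the data: the 12-row sum, and relative changes with a library left out. Depth limits miR-98-5p most, with 7 reads in each E10.5 motoneuron library.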

Other observations

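Passenger strands of the family reached at most 351 TPM, for let-7d-3p in E12.5 V3, which stood at 118 TPM in E12.5 motoneurons and 258 TPM in V2a. Of the 12 listed strands, 2 were at 0 in all 7 libraries. let-7c-1-3p was at 38.3 TPM in E12.5 motoneurons, 8.67 TPM in V2a and 23.3 TPM in V3. let-7b-3p was at 0 in all 4 E10.5 libraries, which allows up to 6.08 RPM in the shallowest, and at 4.24 TPM in E12.5 motoneurons, 7.88 TPM in V2a and 12.8 TPM in V3. Among the guides' neighbours, miR-125b-5p was at 15094 TPM in E12.5 motoneurons, 5695 TPM in V2a and 4356 TPM in V3. miR-99b-5p was at 39655 TPM in E12.5 motoneurons, 60904 TPM in V2a and 51306 TPM in V3, and let-7e-5p, from the same cluster, was likewise lowest in motoneurons. miR-125a-5p, the other member of that cluster, was instead highest in motoneurons, at 6397 TPM in E12.5 motoneurons, 4809 TPM in V2a and 4683 TPM in V3.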
